A study of Mus musculus with 15 samples.

Results

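The SLC25 family is a set of nuclear-encoded carriers, most of which move metabolites across the inner mitochondrial membrane. Its members were taken here as the genes whose symbol begins with Slc25a and a number, on probe sets with exactly 1 gene symbol, with the brightest probe set per gene. The rule found 46 genes among the 22180 genes measured, and each of the 46 had 1 probe set of its own. In addition, 1 probe set shared by Slc25a35 and Rangrf entered no gene.

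The samples were mouse LSK cells, the fraction of blood-forming cells without lineage markers and with Sca-1 and Kit that holds hematopoietic stem and progenitor cells. LSK cells cultured for 18 h with extracellular vesicles (EV) of AFT stromal cells, LSK cells cultured for 18 h without EV, and non-cultured LSK cells taken after sorting made up 3 groups of 5 arrays each. The culture medium was MyeloCult M5300 in both cultured groups, and the array was the Affymetrix Mouse Gene 2.0. The labels give no strain, age, genotype, animal, batch or date, and the design text states only that the replicates are biological. If samples of a group shared a source, the p-values measure only the spread between these samples.

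Most SLC25 carriers share a fold of repeated transmembrane helices and exchange or co-transport small molecules between the cytosol and the mitochondrial matrix. Adenine nucleotide and phosphate carriers feed ATP synthesis, aspartate-glutamate and oxoglutarate-malate carriers form the malate-aspartate shuttle, and others bring in iron, glutathione, cofactors, amino acids and acylcarnitines. Hematopoietic stem cells are known for low mitochondrial respiration at rest, and erythroid cells depend on the mitoferrins for heme synthesis.

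The deposited signals are on a log2 scale, as far as their range shows, and are given below without further scaling. A probe set's signal has no zero and its own affinity, so signals were compared between groups and not between genes. A gene is said to have risen or fallen, or to be called, where its Benjamini-Hochberg adjusted p from limma, over all 22180 genes and two-sided, was under 0.05. Each difference is the mean of the group named first minus the mean of the group named second, in log2 units, with its moderated standard error (SE).

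Array medians lay between 4.62 and 4.74. Markers of LSK identity were read from 8 genes. Kit averaged 9.88 with EV, 10.01 without EV and 9.62 for non-cultured cells, and Cd34 averaged 10.4, 10.4 and 10.6 in the same order. Of the 8 markers, 1 rose with EV against non-cultured (Flt3), and 3 rose and 1 fell without EV. The mean of 10 mature myeloid markers was 7.47 to 7.83 on arrays with EV, 7.60 to 7.81 without EV and 6.29 to 7.03 in non-cultured cells, where replicates 4 and 5 were lowest, at 6.29 and 6.34. In both culture comparisons 5 of these 10 markers rose (Csf1r, Lyz2, S100a8, S100a9 and Adgre1) and Mpo fell. The mean of 9 lymphoid markers was 4.25 to 4.59 with EV, 4.16 to 4.50 without EV and 4.94 to 5.15 in non-cultured cells. Dntt (-3.36 with EV and -3.60 without EV) and Nkg7 (-2.18 and -2.11) fell, and the other 7 were not called. The median difference of the 9 was 0.02 with EV and -0.10 without EV, so the lower mean is not a fall across the list. Non-cultured replicates 4 and 5 also had the highest means of 6 erythroid markers, at 5.69 and 5.49, against 5.17 to 5.35 on the other non-cultured arrays, and of these markers Car1 fell in both culture comparisons and Gata1 rose without EV. Of 5 megakaryocyte markers Itga2b rose in both. The mean of 10 stromal markers was 4.79 to 5.15 with EV, 4.68 to 4.89 without EV and 4.68 to 4.82 in non-cultured cells, and Col1a2, Cxcl12 and Sparc rose with EV against non-cultured. Replicate 1 with EV stood slightly apart, with a mean correlation of 0.964 with its group over the 22180 genes, against 0.974 to 0.982 on the other 14 arrays. The part these markers play in the carriers' differences was not tested. In such bulk samples fewer cells of a type and less RNA per cell cannot be told apart.

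Carriers called in both culture comparisons are shown first, by their promoters. These are the members called in both comparisons that have exactly 1 promoter window in the RefSeq table (GRCm38.p6). Slc25a25, which fell in both, and Slc25a32, which rose in both, do not meet this rule and are not shown. Each line gives the 250 bases before the annotated start, 5′ to 3′ on the gene's strand. Capitals mark matches, on either strand, to the motifs CACGTG (the E-box bound by MYC and MAX), TGCGCA (the core of the NRF1 site), TGACGT (the CREB and ATF half-palindrome), TTGCATC (an ATF4 and CEBP composite) and AGATAA (bound by GATA factors).
Slc25a5, chrX:36795347-36795596, plus strand: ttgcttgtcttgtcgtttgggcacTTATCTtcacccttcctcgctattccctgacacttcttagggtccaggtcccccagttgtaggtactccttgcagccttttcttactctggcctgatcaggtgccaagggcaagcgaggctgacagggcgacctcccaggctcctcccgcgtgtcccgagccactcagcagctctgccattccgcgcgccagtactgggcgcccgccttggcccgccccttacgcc
Slc25a3, chr10:91123968-91124217, minus strand: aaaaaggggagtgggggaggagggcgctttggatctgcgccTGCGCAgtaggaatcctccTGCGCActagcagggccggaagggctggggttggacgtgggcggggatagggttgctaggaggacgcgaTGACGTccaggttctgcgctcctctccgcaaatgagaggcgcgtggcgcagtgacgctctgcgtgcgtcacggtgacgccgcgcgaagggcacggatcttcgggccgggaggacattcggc
Slc25a13, chr6:6217174-6217423, minus strand: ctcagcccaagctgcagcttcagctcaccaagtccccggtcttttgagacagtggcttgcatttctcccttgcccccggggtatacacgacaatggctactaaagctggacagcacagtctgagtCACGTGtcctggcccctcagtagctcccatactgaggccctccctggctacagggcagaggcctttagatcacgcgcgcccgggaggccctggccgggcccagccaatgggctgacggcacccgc
Slc25a11, chr11:70647040-70647289, minus strand: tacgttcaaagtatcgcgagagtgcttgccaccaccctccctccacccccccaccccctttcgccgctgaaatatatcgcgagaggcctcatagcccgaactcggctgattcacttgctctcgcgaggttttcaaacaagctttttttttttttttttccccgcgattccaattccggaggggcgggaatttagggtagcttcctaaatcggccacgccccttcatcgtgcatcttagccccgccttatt
Slc25a40, chr5:8422588-8422837, plus strand: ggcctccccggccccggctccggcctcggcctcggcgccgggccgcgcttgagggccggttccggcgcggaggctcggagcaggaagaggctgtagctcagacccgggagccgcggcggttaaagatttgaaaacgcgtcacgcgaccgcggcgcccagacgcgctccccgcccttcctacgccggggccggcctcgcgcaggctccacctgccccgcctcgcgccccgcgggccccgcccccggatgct
The first 3 carriers fell in culture and the other two rose. The window of Slc25a3 holds 2 TGCGCA matches and 1 TGACGT match, that of Slc25a13 holds 1 CACGTG match, and that of Slc25a5 holds AGATAA on its other strand. Neither Slc25a11 nor Slc25a40 has a match in these 250 bases.

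Promoter windows of 300 bases, from 250 before to 50 after the start, were found for 36 of the 46 members, in 46 windows. CACGTG was in 8 member windows (17.4%), against 7.15% of all 32851 windows. The genes were Slc25a1, Slc25a13, Slc25a14, Slc25a15, Slc25a31, Slc25a33 and Slc25a36, and only Slc25a13 among them was called in any comparison. TGACGT was in 5 member windows (10.9%, against 7.51% of all windows) and TGCGCA in 4 (8.70%, against 7.76%). AGATAA was in 3 (6.52%, against 11.2%), and TTGCATC in 0 (against 2.53%). Member windows had a median GC content of 59.3%, against 52.7% over all windows, and some windows of a gene overlap, so these shares are descriptions only.

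After culture a few carriers were higher and a few lower. In the main fit all 8 carriers of adenine nucleotides and phosphate had negative differences (7 of 8 without EV after median centring or quantile normalization). Differences near 0 among them also changed sign with some arrays left out. With EV against non-cultured, 4 of 46 members rose (8.70%) and 6 fell (13%), where 6.28% of all genes rose and 7.85% fell (14.1% in either direction). Without EV against non-cultured, 5 rose and 5 fell (10.9% each), where 6.75% of all genes rose and 6.88% fell (13.6% in either direction). Over the 46 members the median difference was -0.04 with EV and 0.00 without EV, beside 0.04 and 0.01 over all genes. These comparisons share the 5 non-cultured arrays, so their values are given side by side and not as separate evidence. Without non-cultured replicates 4 and 5, 4 rose and 3 fell with EV, and 4 rose and 3 fell without EV. Those 4 risen without EV lacked Slc25a42 and Slc25a45, so they included a member not called in the main fit.

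Among carriers of adenine nucleotides and phosphate, 4 of 8 fell with EV and 3 of 8 fell without EV, where 7.85% and 6.88% of all genes fell, and none rose. All 8 differences were negative in each comparison (7 of 8 without EV after median centring or quantile normalization), with medians of -0.41 with EV and -0.34 without EV, beside 9361 and 10552 negative differences among 22180 genes. With EV the count was 2 of 8 without replicate 1 or 3 with EV, without non-cultured replicate 1, 3 or 4, or without non-cultured replicates 4 and 5 together, since Slc25a24 and Slc25a25 then lost their calls. Without EV it was 2 of 8 after either of these scalings, without non-cultured replicates 4 and 5 together, without replicate 1, 3 or 4 with EV, without replicate 3, 4 or 5 without EV, or without non-cultured replicate 1, 3, 4 or 5. Slc25a3 and Slc25a5 were called in each of these fits. A minimum fold of 1.5 also lowered the counts, since it ended the calls of Slc25a3 in both comparisons and of Slc25a24 with EV.

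Slc25a5, the adenine nucleotide translocase of dividing cells, exchanges matrix ATP for cytosolic ADP. Its log2 signal was 8.88, 8.47, 8.61, 8.46 and 8.88 on the 5 arrays with EV, 8.60, 8.74, 8.88, 8.67 and 8.59 on those without EV, and 9.51, 9.57, 9.71, 9.44 and 9.35 on the non-cultured arrays. Every cultured array lay below every non-cultured array. It fell 1.81-fold with EV (-0.86, SE 0.11, adjusted p = 3.62e-05) and 1.77-fold without EV (-0.82, SE 0.11, adjusted p = 5.47e-05). Slc25a5 has processed pseudogenes and close paralogs, and cross-hybridisation with them was not tested. Its paralog Slc25a4, the isoform of heart and muscle, averaged 6.59 ± 0.29 with EV, 6.41 ± 0.23 without EV and 6.72 ± 0.11 for non-cultured cells (SD, n = 5 each), and was not called (-0.13, adjusted p = 0.612 with EV and -0.31, adjusted p = 0.175 without EV). Slc25a31, the isoform of male germ cells, lay between 3.83 and 4.20 on all 15 arrays and was not called.

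Slc25a3, which brings in the phosphate that ATP synthase uses, showed 8.28, 8.40, 8.36, 8.27 and 8.11 with EV, 8.71, 8.48, 8.49, 8.20 and 8.40 without EV, and 8.86, 8.90, 8.91, 8.86 and 8.67 in non-cultured cells. All arrays with EV lay below the non-cultured ones, and 1 array without EV, replicate 1, lay above non-cultured replicate 5. The carrier fell 1.47-fold with EV (-0.55, SE 0.10, adjusted p = 0.000827) and 1.3-fold without EV (-0.38, SE 0.10, adjusted p = 0.0125). Its calls ended under a minimum fold of 1.5, and under no other alternative run here.

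The ATP-Mg/phosphate carriers set the pool of adenine nucleotides in the matrix. Slc25a25, one of them, read 4.91, 4.51, 4.69, 5.12 and 5.33 with EV, 5.08, 4.61, 5.01, 4.82 and 5.10 without EV, and 5.81, 4.94, 5.93, 5.45 and 5.42 in non-cultured cells. Non-cultured replicate 2 was the low array that overlapped the cultured groups. It fell by 0.60 with EV (SE 0.18, adjusted p = 0.0401) and by 0.59 without EV (SE 0.18, adjusted p = 0.0455). These calls were marginal. Of the 15 fits with an array left out, the call without EV held in 3 (without replicate 2 or 5 with EV, or non-cultured replicate 2), with adjusted p from 0.0099 to 0.12. With EV it held in 8 of 15, and was lost without replicate 1, 2 or 3 with EV or without non-cultured replicate 1, 3, 4 or 5, with adjusted p from 0.0089 to 0.105.

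Slc25a24, a second carrier of this kind, read 4.87, 5.00, 4.91, 5.04 and 4.65 with EV, 5.36, 5.30, 4.72, 4.90 and 4.52 without EV, and 5.32, 5.40, 5.40, 5.46 and 5.27 in non-cultured cells. The group without EV was split, with replicates 1 and 2 at the non-cultured level and the other 3 below it. Slc25a24 fell by 0.48 with EV (SE 0.14, adjusted p = 0.0319), and the difference of -0.41 without EV was not called (adjusted p = 0.0668). The call was lost without replicate 1, 3 or 5 with EV or without non-cultured replicate 1, 2, 3 or 4 (adjusted p up to 0.0815). Slc25a23 (-0.34, adjusted p = 0.109 with EV and -0.29, adjusted p = 0.183 without EV) and Slc25a41 (-0.04 and -0.05) were not called. Slc25a41 was among the dimmest 40% of genes.

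**Figure D1:**
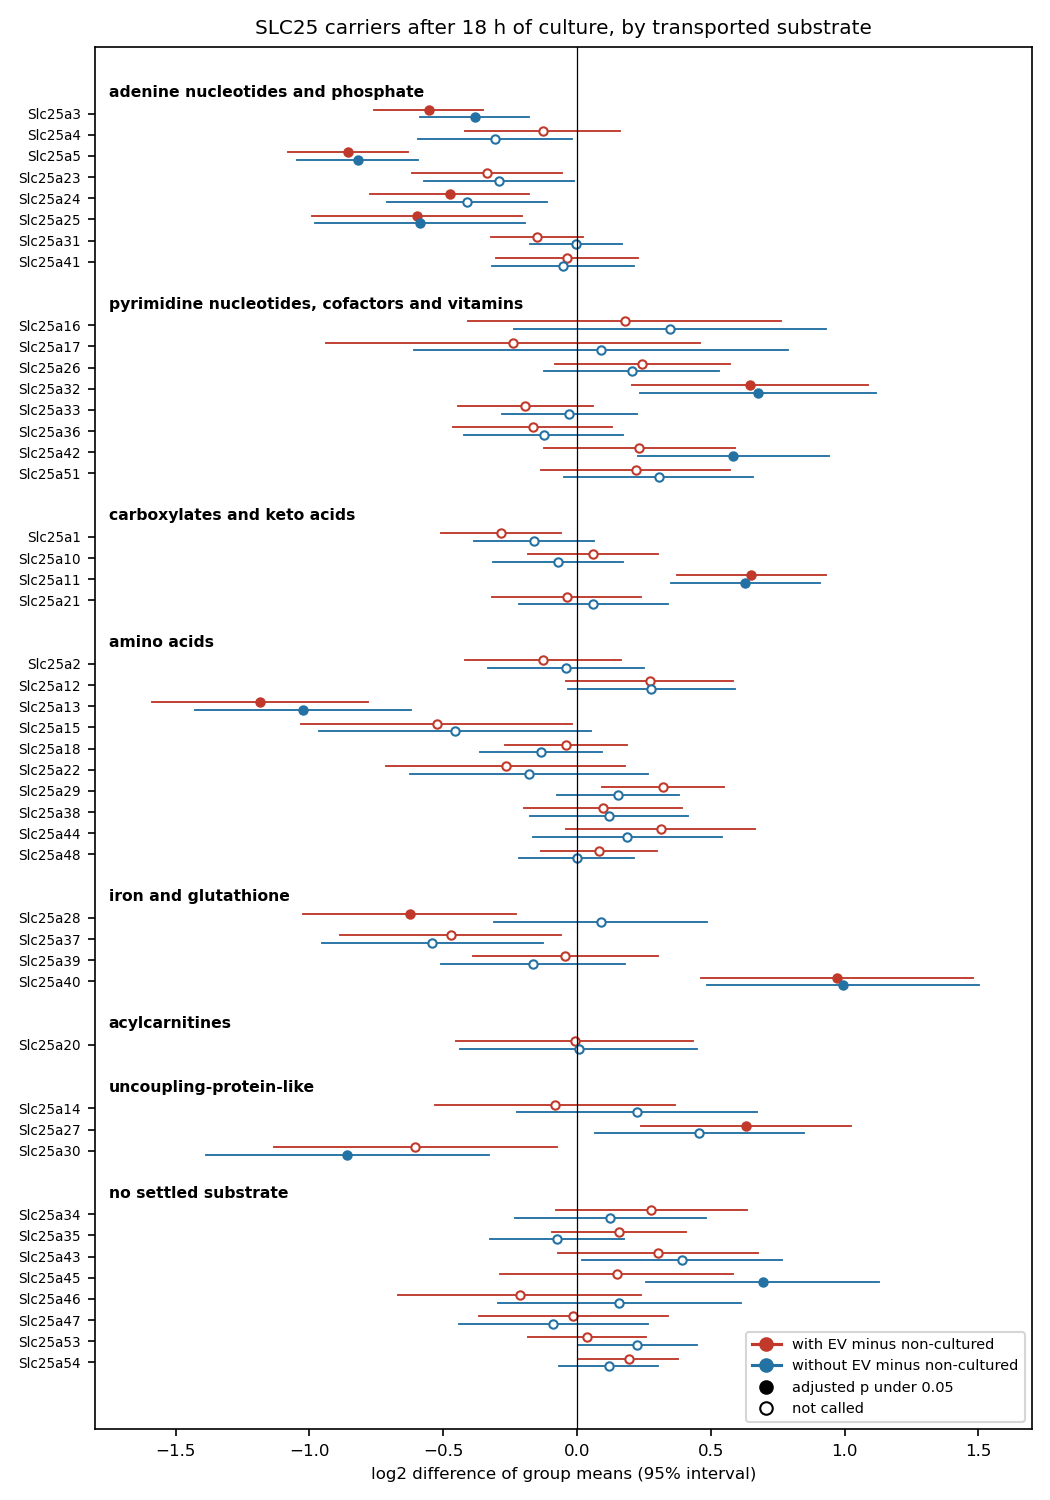
Difference in mean log2 signal between each cultured group and non-cultured cells (x axis, log2 units, bars are 95% intervals) for the 46 SLC25 genes grouped by transported substrate, with EV in red and without EV in blue, and filled points for adjusted p under 0.05. All 8 carriers of adenine nucleotides and phosphate lie left of 0 in the main fit shown (7 of 8 without EV after median centring or quantile normalization), while called genes of the other groups lie on either side. Slc25a31 without EV and Slc25a41 with EV lie near 0 and changed sign with some arrays left out.

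The malate-aspartate shuttle, which carries reducing equivalents from the cytosol into the matrix, had members on both sides. Slc25a13 (citrin), an aspartate-glutamate carrier, showed the largest fall of any of the 46 members in each culture comparison. Its signal was 4.79, 4.75, 4.45, 5.28 and 5.13 with EV, 4.73, 5.41, 5.25, 4.80 and 5.02 without EV, and 5.98, 5.67, 5.81, 6.33 and 6.54 in non-cultured cells. All cultured arrays lay below all non-cultured arrays, and non-cultured replicates 4 and 5 were the highest. Slc25a13 fell 2.27-fold with EV (-1.19, SE 0.19, adjusted p = 0.000431) and 2.03-fold without EV (-1.02, SE 0.19, adjusted p = 0.0015). Without non-cultured replicates 4 and 5 the differences were -0.94 (adjusted p = 0.0048) and -0.78 (adjusted p = 0.0158).

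Slc25a12 (aralar), the other aspartate-glutamate carrier, was not called. It averaged 7.32 ± 0.28 with EV, 7.32 ± 0.24 without EV and 7.04 ± 0.20 for non-cultured cells (SD, n = 5 each). The differences of 0.27 (adjusted p = 0.269) and 0.28 (adjusted p = 0.278) had 95% intervals of -0.04 to 0.58 and -0.03 to 0.59. The difference between the paralogs was not tested.

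Slc25a11, which exchanges oxoglutarate for malate in the same shuttle, rose. It read 7.63, 7.66, 8.08, 8.17 and 7.77 with EV, 8.02, 7.53, 8.07, 7.76 and 7.82 without EV, and 7.26, 7.27, 7.41, 7.13 and 6.98 in non-cultured cells. Every cultured array lay above every non-cultured array. The increase was 1.57-fold with EV (0.65, SE 0.13, adjusted p = 0.00277) and 1.55-fold without EV (0.63, SE 0.13, adjusted p = 0.00366). The other 3 carboxylate and keto acid carriers were not called. Slc25a1, the citrate carrier, came closest, at -0.28 with EV (adjusted p = 0.0911) and -0.16 without EV (adjusted p = 0.411).

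Of the 10 members placed here as amino acid carriers, Slc25a13 was the single one called in each culture comparison. Over all genes 14.1% were called with EV and 13.6% without EV. Slc25a15, an ornithine carrier of the urea cycle, had -0.53 with EV (adjusted p = 0.176) and -0.46 without EV (adjusted p = 0.272), and 1 non-cultured array reached 7.13 where the median of that group was 5.98. Slc25a29, a carrier of basic amino acids, had 0.32 with EV (adjusted p = 0.0593) and 0.15 without EV (adjusted p = 0.458). Slc25a38, which imports glycine for heme synthesis, averaged 5.25 ± 0.36 with EV, 5.28 ± 0.12 without EV and 5.16 ± 0.12 for non-cultured cells (SD, n = 5 each).

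Of the 4 iron and glutathione carriers, 1 rose and 1 fell with EV, and 1 rose without EV. Over all genes 6.28% rose and 7.85% fell with EV, and 6.75% rose and 6.88% fell without EV. Slc25a40, a glutathione carrier, had 4.98, 5.03, 5.51, 5.03 and 4.93 with EV, 4.93, 5.29, 6.10, 4.49 and 4.76 without EV, and 4.10, 3.77, 4.21, 4.56 and 3.97 in non-cultured cells. The arrays with EV all lay above the non-cultured ones, and without EV only replicate 4 lay within their range. It rose 1.96-fold with EV (0.97, SE 0.24, adjusted p = 0.0113) and 1.99-fold without EV (0.99, SE 0.24, adjusted p = 0.00985), the largest rise among the 46 members in each comparison. Its paralog Slc25a39, also a glutathione carrier, averaged 7.21 ± 0.21 with EV, 7.09 ± 0.25 without EV and 7.25 ± 0.34 for non-cultured cells (SD, n = 5 each) and was not called (-0.04, adjusted p = 0.907 and -0.17, adjusted p = 0.64).

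Slc25a28 (mitoferrin 2), the iron importer of most cells, was the member whose groups with and without EV lay farthest apart. The signal was 7.28, 6.96, 6.43, 7.13 and 7.46 with EV, 7.53, 8.18, 8.01, 7.31 and 7.78 without EV, and 7.53, 7.63, 7.56, 7.71 and 7.95 in non-cultured cells. All arrays with EV lay below all non-cultured arrays, and the group without EV spread around them. Slc25a28 fell 1.54-fold with EV against non-cultured (-0.63, SE 0.19, adjusted p = 0.0338) and was not called without EV (0.09, SE 0.19, adjusted p = 0.858). The call was lost without replicate 2, 3 or 4 with EV or without non-cultured replicate 2, 4 or 5 (adjusted p up to 0.0814), after quantile normalization (adjusted p = 0.0898) and without non-cultured replicates 4 and 5 together (adjusted p = 0.166). Slc25a37 (mitoferrin 1), the iron importer of erythroid cells, had -0.47 with EV (adjusted p = 0.13) and -0.54 without EV (adjusted p = 0.0822) and was not called. Its highest non-cultured arrays were replicates 4 and 5, at 8.04 and 8.09, the arrays with the highest erythroid marker means.

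**Figure D2:**
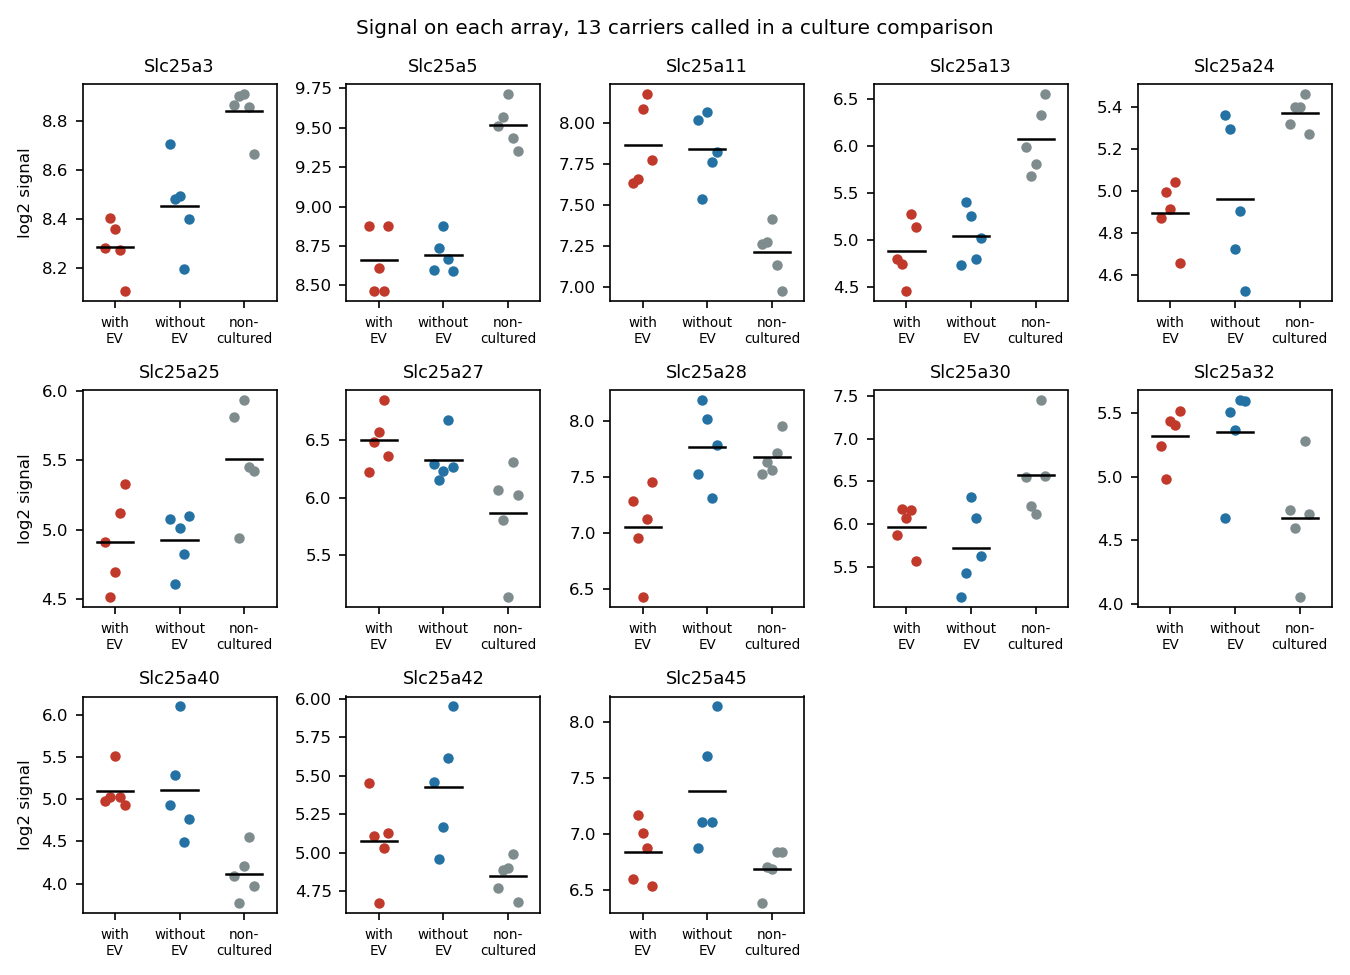
Log2 signal (y axis, own scale per panel) on each array with EV (red), without EV (blue) and of non-cultured cells (grey) for the 13 SLC25 genes called in a culture comparison, with a line at each group mean. Slc25a5 and Slc25a13 lie lower and Slc25a11 higher on every cultured array than on every non-cultured array, and Slc25a28 lies lower on every array with EV than on every non-cultured array.

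Of the 8 carriers of pyrimidine nucleotides, cofactors and vitamins, 1 rose with EV, 2 rose without EV and none fell, where 6.28% and 6.75% of all genes rose. Differences were positive for 5 of 8 with EV and 6 of 8 without EV, beside 12819 and 11628 of 22180 genes. Slc25a32, a carrier of folate and FAD, read 5.25, 4.98, 5.44, 5.41 and 5.52 with EV, 4.68, 5.51, 5.37, 5.60 and 5.60 without EV, and 4.74, 4.59, 4.05, 5.28 and 4.71 in non-cultured cells. Replicate 1 without EV and non-cultured replicate 4 were the arrays that overlapped the other group. It rose 1.56-fold with EV (0.64, SE 0.21, adjusted p = 0.0494) and 1.6-fold without EV (0.68, SE 0.21, adjusted p = 0.0402). Of the 15 fits with an array left out, the call with EV held in 3 (without replicate 2 with EV, replicate 1 without EV or non-cultured replicate 4), and adjusted p ran from 0.0129 to 0.124. Without EV it held in 7 of 15, and was lost without non-cultured replicate 1, 2, 3 or 5 or without replicate 2, 3, 4 or 5 without EV (adjusted p up to 0.103).

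Slc25a42, which imports coenzyme A, read 5.46, 5.11, 4.67, 5.03 and 5.13 with EV, 5.46, 4.96, 5.17, 5.62 and 5.95 without EV, and 4.77, 4.89, 4.90, 4.99 and 4.68 in non-cultured cells. The group without EV lay above the non-cultured one except for replicate 2. It rose 1.5-fold without EV (0.58, SE 0.17, adjusted p = 0.0291), and its 0.23 with EV was not called (adjusted p = 0.429). That call was lost without non-cultured replicate 1, 2 or 5 or without replicate 1, 4 or 5 without EV (adjusted p up to 0.0742), and without non-cultured replicates 4 and 5 together (adjusted p = 0.0895). The carriers of pyrimidine nucleotides, Slc25a33 and Slc25a36, had differences between -0.19 and -0.03 and were not called, nor was Slc25a51, which imports NAD+ (0.22, adjusted p = 0.457 with EV and 0.31, adjusted p = 0.297 without EV).

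Slc25a20, which carries acylcarnitines in for fatty acid oxidation, averaged 5.53 ± 0.36 with EV, 5.54 ± 0.32 without EV and 5.54 ± 0.40 for non-cultured cells (SD, n = 5 each). Its differences of -0.01 and 0.01 had 95% intervals of -0.45 to 0.43 and -0.44 to 0.45, and differences inside these intervals could not be told from none.

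Among the 3 members that resemble uncoupling proteins, 1 was called with EV and another without EV, where 14.1% and 13.6% of all genes were called. Slc25a27 (UCP4), known from brain, read 6.22, 6.48, 6.57, 6.85 and 6.37 with EV, 6.29, 6.15, 6.23, 6.67 and 6.27 without EV, and 6.07, 5.80, 5.13, 6.31 and 6.02 in non-cultured cells. Non-cultured replicate 3 was low and replicate 4 lay among the cultured arrays. The gene rose 1.55-fold with EV (0.63, SE 0.18, adjusted p = 0.0299), and its 0.46 without EV was not called (adjusted p = 0.126). The call was lost without replicate 2, 3 or 4 with EV or without non-cultured replicate 2 or 3 (adjusted p up to 0.0793). Slc25a30, described in kidney, read 5.87, 6.17, 6.08, 6.17 and 5.56 with EV, 5.14, 5.43, 6.32, 6.08 and 5.62 without EV, and 6.55, 6.21, 6.11, 7.45 and 6.56 in non-cultured cells, where replicate 4 stood highest. It fell 1.81-fold without EV (-0.86, SE 0.25, adjusted p = 0.0299), and its -0.60 with EV was not called (adjusted p = 0.13). Without non-cultured replicates 4 and 5 the fall without EV was -0.57 and was not called (adjusted p = 0.153), and the call was also lost without non-cultured replicate 1, 4 or 5 alone or without replicate 1, 2 or 5 without EV (adjusted p up to 0.0796).

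Of the 8 members placed here as having no settled substrate, 1 was called without EV and 0 with EV, where 13.6% and 14.1% of all genes were called. Slc25a45 read 6.60, 7.17, 7.01, 6.87 and 6.54 with EV, 6.87, 7.10, 7.70, 7.11 and 8.14 without EV, and 6.38, 6.70, 6.69, 6.84 and 6.84 in non-cultured cells. All arrays without EV lay above all non-cultured arrays, while the arrays with EV overlapped both. It rose 1.62-fold without EV (0.69, SE 0.20, adjusted p = 0.033) and was not called with EV (0.15, SE 0.20, adjusted p = 0.716). The call was lost without non-cultured replicate 1, 2 or 3 or without replicate 3 or 5 without EV (adjusted p up to 0.0882). Slc25a43 had all arrays with EV above all non-cultured arrays at a low signal, 4.262 to 4.678 with EV against 3.936 to 4.261 in non-cultured cells, and was not called (0.30, adjusted p = 0.311).

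In arrays that did not overlap, 3 members lay wholly above and 5 wholly below non-cultured cells with EV, where 5.06% and 6.18% of all genes did. Without EV, 2 lay above and 2 below, where 5.89% and 6.1% of all genes did. Slc25a5, Slc25a13, Slc25a11 and Slc25a40 were called in both culture comparisons in each of the 15 fits with an array left out and in each of the 11 other alternatives, and Slc25a3 in all of these except the one with a minimum fold of 1.5. Fitting only the compared groups ended the calls of Slc25a30 (adjusted p = 0.0604), Slc25a32 (0.0751) and Slc25a45 (0.0548) without EV, and of Slc25a25 (0.0777) and Slc25a27 (0.0625) with EV. Leaving out non-cultured replicates 4 and 5 also ended those of Slc25a24 (0.0942) and Slc25a25 (0.0866) with EV and of Slc25a25 (0.0942) and Slc25a45 (0.0539) without EV. Median centring ended the call of Slc25a32 with EV (0.0619) and of Slc25a25 without EV (0.055), quantile normalization that of Slc25a25 without EV (0.0568), adjustment over all probe sets that of Slc25a32 with EV (0.0506), and a minimum fold of 1.5 those of Slc25a24 with EV and Slc25a42 without EV.

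No carrier was called between the cultured groups, which differ by the vesicles. With EV against without EV, 0 of 46 members rose or fell (limma, lowest adjusted p = 0.326), where 0.198% of all genes were called, 0.18% higher and 0.018% lower (40 and 4 genes). At an unadjusted p under 0.05 there were 2 members, Slc25a28 and Slc25a45, where 6.82% of all genes were. The median difference was -0.03, with 17 positive and 29 negative, beside a median of 0.01 over all genes. No member had its groups apart without overlap, where 0.762% of all genes lay wholly above and 0.437% wholly below. The 95% interval reached a median of 0.34 to either side of the difference over the members, which limits what 5 arrays a group could show.

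The members with the smallest p in this comparison were Slc25a28, Slc25a45, Slc25a42, Slc25a35, Slc25a53 and Slc25a31. Slc25a28 differed by -0.71 (SE 0.19, 95% interval -1.11 to -0.32, adjusted p = 0.326), and an array with EV was higher in 1 of 25 pairs of arrays. Slc25a45 differed by -0.55 (SE 0.20, adjusted p = 0.611), and Slc25a42 by -0.35 (SE 0.17, adjusted p = 0.728). All 3 were lower with EV on average and none passed the test. Slc25a35 lay between 5.69 and 6.20 with EV and between 5.50 and 5.85 without EV (0.23, adjusted p = 0.751). Slc25a53 lay between 5.07 and 5.25 with EV and between 5.19 and 5.71 without EV (-0.19, adjusted p = 0.767). Slc25a31 lay between 3.83 and 4.08 with EV and between 4.01 and 4.17 without EV (-0.15, adjusted p = 0.767), close to the lowest signals among the members.

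For the carriers with the clearest culture differences, the interval for EV varied in width. Slc25a5 differed by -0.04 between the cultured groups (95% interval -0.26 to 0.19) and Slc25a11 by 0.02 (-0.26 to 0.30), both intervals short of their culture differences. Slc25a3 differed by -0.17 (-0.37 to 0.03), an interval that nearly reached its culture difference without EV (-0.38). Slc25a13 differed by -0.16 (-0.57 to 0.24) and Slc25a40 by -0.02 (-0.53 to 0.49), intervals wider than the median of the members (0.34 to either side).

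**Figure D3:**
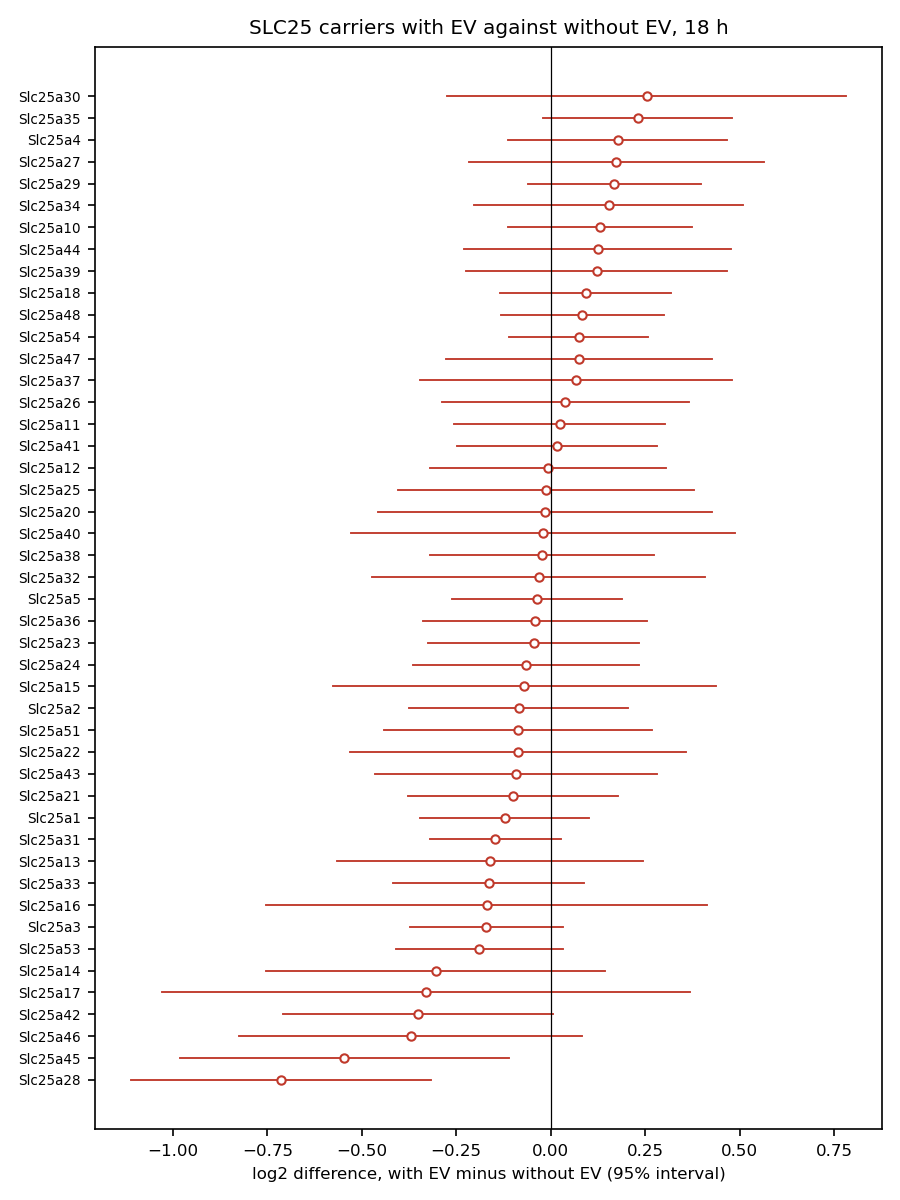
Difference in mean log2 signal with EV minus without EV (x axis, log2 units, bars are 95% intervals) for the 46 SLC25 genes in order of the difference. The points run from -0.71 for Slc25a28 to 0.25 for Slc25a30, and all are open because none passed the test.

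The median SD within a group was 0.25 with EV, 0.22 without EV and 0.21 for non-cultured cells over the members, against 0.21, 0.18 and 0.18 over all genes in the same order. Slc25a17, a peroxisomal carrier of cofactors, had the highest SD with EV, 0.93, with arrays from 5.08 to 7.65. The mean signal over all 46 members was 5.60 to 5.77 on arrays with EV, 5.67 to 5.78 without EV and 5.63 to 5.77 in non-cultured cells, so the ranges overlapped.

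Some members lie next to each other in the RefSeq gene order. Slc25a5 and Slc25a43 are adjacent protein-coding genes, and while Slc25a5 fell, Slc25a43 had 0.30 with EV and 0.39 without EV and was not called. Slc25a24 and Slc25a54 are also adjacent, with -0.48 and 0.19 with EV, of which the first was called. The pairs Slc25a23 with Slc25a41 and Slc25a29 with Slc25a47 held no called gene.

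Other genes of mitochondrial transport were read from lists chosen by function. Of the 10 genes that import carriers into the inner membrane, 1 fell with EV and 1 fell and 1 rose without EV. Over all genes 7.85% fell and 6.28% rose with EV, and 6.88% fell and 6.75% rose without EV. Timm8a1, a small chaperone of the intermembrane space, fell by 1.05 with EV (adjusted p = 0.000931) and by 0.99 without EV (adjusted p = 0.00151), and Timm10, a chaperone of the same kind, rose by 0.62 without EV (adjusted p = 0.0346) and had 0.08 with EV (adjusted p = 0.831). Between the cultured groups the median of their 10 differences was -0.19 and the lowest adjusted p was 0.567, so none was called. Of 4 measured relatives under other symbols (Ucp1, Ucp3, Mtch1 and Mtch2), 0 were called in any comparison. Over all genes 14.1% were called with EV and 13.6% without EV against non-cultured, and 0.198% between the cultured groups.

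Of 20 other membrane transporters of mitochondria, 3 rose and 2 fell with EV (15% and 10%), where 6.28% and 7.85% of all genes did. Without EV 4 rose and 1 fell (20% and 5%), where 6.75% and 6.88% of all genes did. Slc8b1, the sodium-calcium exchanger of the inner membrane, rose by 1.27 with EV (adjusted p = 0.00217) and by 1.19 without EV (adjusted p = 0.00366). Vdac1, the outer membrane channel that adenine nucleotides pass, fell by 0.64 with EV (adjusted p = 0.00189) and by 0.56 without EV (adjusted p = 0.00506). Sfxn1, a serine transporter, fell by 0.96 with EV (adjusted p = 0.0038) and had -0.59 without EV (adjusted p = 0.0658).

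Of 19 enzymes of the shuttles that the carriers serve, 4 rose and 4 fell with EV (21.1% each), where 6.28% and 7.85% of all genes did. Without EV 4 rose and 5 fell (21.1% and 26.3%), where 6.75% and 6.88% of all genes did. Got2, the matrix aspartate aminotransferase that works beside citrin, fell by 0.80 with EV (adjusted p = 0.000661) and by 0.75 without EV (adjusted p = 0.00121). Got1, its cytosolic partner, fell by 0.83 with EV (adjusted p = 0.00263) and had -0.49 without EV (adjusted p = 0.0617). Idh1, cytosolic isocitrate dehydrogenase, rose by 1.38 with EV (adjusted p = 0.00642) and by 2.00 without EV (adjusted p = 0.000336), while Idh2, its matrix counterpart, fell by 0.88 with EV (adjusted p = 7.55e-06) and by 0.77 without EV (adjusted p = 2.78e-05). Cpt2, which frees the acyl group that Slc25a20 brings in, rose by 0.75 with EV (adjusted p = 0.012) and by 0.90 without EV (adjusted p = 0.00333). None of the transporters or enzymes was called between the cultured groups (limma, lowest adjusted p = 0.726 in each list).

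**Figure D4:**
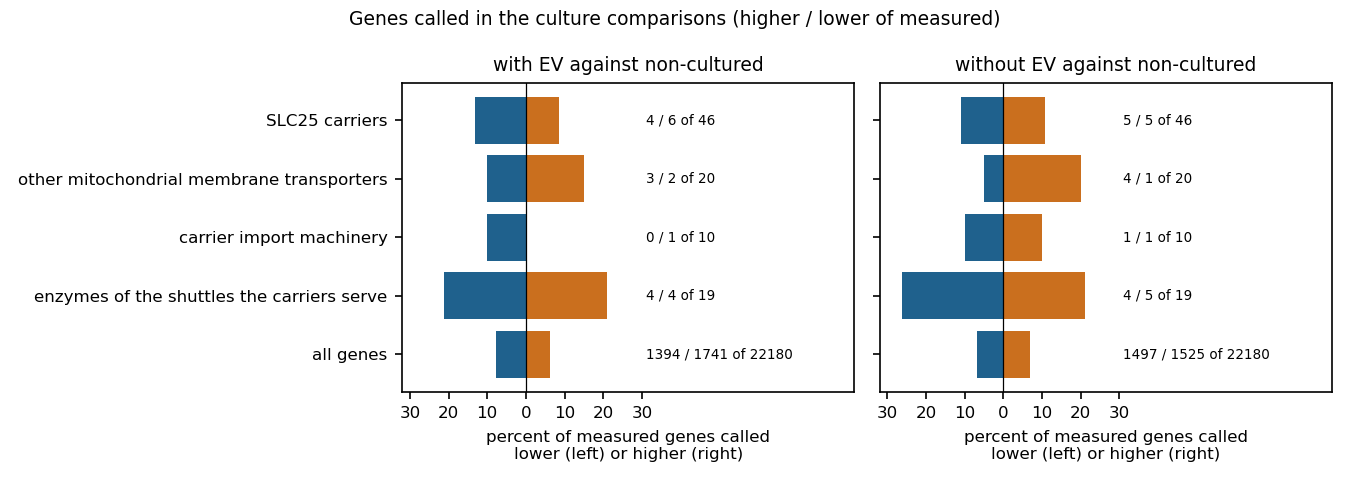
Percent of measured genes called lower (bars to the left) and higher (bars to the right) with EV against non-cultured (left panel) and without EV against non-cultured (right panel), for the SLC25 carriers, the 3 related lists and all genes, with the number called higher, lower and measured beside each bar. The carriers show 4 higher and 6 lower with EV, and 5 higher and 5 lower without EV, of 46.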

How the data were processed

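The deposited values of 41345 probe sets on 15 arrays were taken as log2 signal from their range (1.40 to 13.03). Their log base, background correction and normalization are not given in the sources used, and the submitters' processing notes name MAS5 alone, with no role. Per the labels' protocols, targets were made from picogram amounts of total RNA. Gene symbols came from the platform annotation, where 23521 probe sets have 1 symbol, and the brightest probe set was kept for each of 22180 genes. Group means were estimated on all 15 arrays together by limma (version 3.58.1, R 4.3.3, functions lmFit and eBayes, 12 residual and 3.66 prior degrees of freedom), after a check on simulated data. No signal over background is given, and the number of arrays limits precision. Array values were given for members called in any comparison, and for up to 6 members with the smallest p with EV against without EV. The members, substrate groups, gene lists, motifs and tests were chosen with earlier results of these data known. Promoter sequences are from RefSeq (GRCm38.p6). Replicate numbers were not treated as pairs in the main fit, and whether they pair the samples is not known (see the closing section). Alternatives were normalization, dim genes, probe set choice, arrays fitted, replicate block, array weights, variance prior, minimum fold and arrays left out.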

Additional observations from a re-analysis of the deposited data

Results flagged for a closer look

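In 9 of 138 sets of 5 arrays (46 carriers in 3 groups), 1 array stood apart from the other 4 by a Dixon test, and chance flags about 5% of such sets. With EV, Slc25a26 was 5.69 in replicate 3 (5.29 to 5.38 on the others) and Slc25a40 was 5.51 in replicate 3 (4.93 to 5.03). Without EV, Slc25a18 was 5.03 in replicate 4 (4.70 to 4.78), Slc25a26 was 5.90 in replicate 3 (5.13 to 5.29), Slc25a27 was 6.67 in replicate 4 (6.15 to 6.29) and Slc25a32 was 4.68 in replicate 1 (5.37 to 5.60). In non-cultured cells, Slc25a3 was 8.67 in replicate 5 (8.86 to 8.91), Slc25a17 was 5.75 in replicate 5 (6.43 to 6.70) and Slc25a51 was 4.73 in replicate 3 (5.27 to 5.39). Slc25a26, a carrier of S-adenosylmethionine, was not called in any comparison.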

How the results depend on the processing

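None of the calls in the culture comparisons, and none of the 6 members with the smallest p with EV against without EV, changed direction under any alternative run. Other members were not followed in this way, and differences near 0 can change sign with 1 array left out. Only median centring, quantile normalization, array weights and leaving out arrays of a compared group could move a difference. The other alternatives kept each member's difference as it was, so they could not change its direction. With EV against without EV, 0 carriers were called under all 10 alternatives and in all 15 fits that left out 1 array. Without EV against non-cultured, 3 rose when only the compared groups were fitted (main result 5), and 3 fell without non-cultured replicates 4 and 5 (main result 5). With EV against non-cultured, 3 fell without those 2 arrays (main result 6). Over all 11 other alternatives the fallen count ran from 3 to 7 in each culture comparison. The risen count ran from 3 to 4 with EV and from 3 to 5 without EV. Leaving out 1 array gave 2 to 4 risen and 3 to 6 fallen with EV, and 2 to 5 risen and 3 to 5 fallen without EV. With EV, the count of risen carriers was 2 without replicate 3 or 4 with EV or non-cultured replicate 2 or 3, and that of fallen ones 3 without replicate 3 with EV or non-cultured replicate 4. Without EV, the risen count was 2 without non-cultured replicate 1 or 2 or replicate 5 without EV, and 3 without non-cultured replicate 3 or 5 or replicate 3 or 4 without EV. The fallen count was 3 without non-cultured replicate 1, 4 or 5 or replicate 5 without EV. Fewer arrays were fitted in each of these, and the cause was not tested further. With the replicate number as a block, 4 rose and 6 fell with EV, and 5 rose and 6 fell without EV. Among 15 pairs of samples that share a number, correlations of deviations ran from -0.12 to 0.19 and 1 was over 0.1. Pairs of an array with EV and an array without EV were all positive, from 0.02 to 0.19. Pairs with a non-cultured array ran from -0.12 to 0.06. Pairs of unlike number were not compared, so these values cannot decide whether the numbers pair the samples. Leaving out the dimmest 40% of genes kept 39 of 46 carriers.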
